A study of Mus musculus with 4 samples.

Results

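The genes described here are those for ferritin and iron handling: Fth1, Ftl1, Slc40a1, Hmox1, Tfrc, Slc11a1 and Slc11a2. They were taken by symbol from the deposited expression table, which held all 7 among its 15586 genes, and 5 of them passed the filter on low values (mean over the 4 libraries of 1 FPKM or more). FPKM are fragments normalised for transcript length and for the mapped total of each library, so levels of different genes are compared per length. RNA came from retinal microglia of 2-month-old Cx3cr1CreER/+;Tak1fl/fl mice, sorted on EYFP, with 200 cells in each library. All mice thus carried a tamoxifen-inducible Cre at the Cx3cr1 locus, which is active in microglia and also in other cells of the macrophage lineage, and floxed Tak1 alleles, which encode a kinase of cytokine and innate immune signalling. The 2 control libraries came from mice injected with corn oil on 5 days, and the 2 TAK1 knockout libraries from mice injected with tamoxifen at 75 mg/kg on 5 days. Tamoxifen was given to the knockout group alone, so the drug and the deletion cannot be told apart. The genotype label of the knockout samples reads Tak3 where the treatment protocol reads Tak1. The labels do not say whether the libraries came from separate animals, so p-values measure only the spread between these libraries, which may be technical.

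Cells take up transferrin-bound iron through the transferrin receptor, move it out of the endosome through a divalent metal transporter, store it in a shell of ferritin heavy and light chains, and release it through ferroportin. Macrophages also recover iron from heme. Much of this is set after transcription: when iron is scarce, iron regulatory proteins bind a hairpin called the iron-responsive element, which blocks translation when it lies in the 5′ untranslated region (UTR) of an mRNA and protects the mRNA when it lies in the 3′ UTR. The level of ferritin mRNA therefore does not give the level of ferritin protein.

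The hairpins are shown because they mark which of the 7 mRNAs carry this element and at which end. UTRs of protein-coding transcripts (GENCODE vM21 basic annotation, GRCm38) were searched on the transcript strand for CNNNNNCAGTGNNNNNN, an unpaired C, a stem of 5 bases, the loop and 5 closing bases, with at least 4 of the 5 stem positions paired (G-U pairs allowed). Capitals mark the loop in each line below, and T stands for U.
Fth1, 5′ UTR, chr19:9982738-9982754, plus strand: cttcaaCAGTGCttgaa
Ftl1, 5′ UTR, chr7:45459785-45459801, minus strand: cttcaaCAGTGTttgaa
Slc40a1, 5′ UTR, chr1:45925471-45925487, minus strand: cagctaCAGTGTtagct
Tfrc, 3′ UTR, chr16:32631225-32631241, plus strand: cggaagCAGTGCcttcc
Tfrc, 3′ UTR, chr16:32631604-32631620, plus strand: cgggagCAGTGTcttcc
Tfrc, 3′ UTR, chr16:32631669-32631685, plus strand: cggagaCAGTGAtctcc
Tfrc, 3′ UTR, chr16:32631716-32631732, plus strand: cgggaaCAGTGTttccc
Slc11a2, 3′ UTR, chr15:100395159-100395175, minus strand: cagagcCAGTGTgtttc

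The Slc11a2 hairpin had 4 of 5 stem positions paired, whereas the others had 5 of 5. Those of Slc11a2, Tfrc and Ftl1 lay in 1 of 2 annotated coding transcripts of their gene, that of Fth1 in 3 of 3 and that of Slc40a1 in the 1 transcript. The Fth1 and Ftl1 hairpins differed at 1 of 17 positions (C12T, counted from 1 at the 5′ end, with the base of Fth1 first). Hmox1 and Slc11a1 had no match in either UTR. Matches of this kind were present in 0.856% of 20561 genes with a 5′ UTR and in 4.1% of 20937 genes with a 3′ UTR. Among genes whose 3′ UTR was within 1.5 times the length of that of Tfrc the share was 7.2%, and for Slc11a2 it was 7.74%. Among genes with a 5′ UTR of similar length the share was 1.8% for Fth1, 0.982% for Ftl1 and 1.02% for Slc40a1. A match describes the sequence only, and the gene-level FPKM do not separate transcripts with and without it.

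The libraries set the precision of what follows. Read depth is unknown, since FPKM keep no counts. Genes at 1 FPKM or more numbered 3777 to 4481 in controls and 5628 to 6055 in knockouts, and the median log2 difference of the 7823 tested genes, knockout minus control, was 0.94 on the log2(FPKM + 1) scale. That shift was -0.11 among the 1177 genes whose mean reached 100 FPKM. For 32.1% of tested genes over 90% of the signal came from 1 library. Values near 0 also occurred in widely used genes: Pcbp1, which encodes a cytosolic iron chaperone, read 0.08 FPKM in control 1 and 54.7 FPKM in control 2. A gene listed at or near 0 is therefore not shown to be silent. The targeted gene, Map3k7, read 0.03 and 0 FPKM in controls and 0.02 and 0.08 in knockouts, so it could not check the labels.

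Knockout was compared with control to ask which iron transcripts differed after deletion of TAK1 in microglia. None of the 5 tested genes passed limma's moderated test with Benjamini-Hochberg adjustment over all tested genes, where the share called was 0% in each direction; 7.7% of tested genes, and 0 of these 5, had an unadjusted p under 0.05. Both knockouts lay above both controls in 27.8% of tested genes and below them in 11.4%. Among the 5, that was the case for Tfrc (above) and for Slc11a2 (below), while the groups overlapped for Fth1, Ftl1 and Slc11a1.

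**Figure D1:**
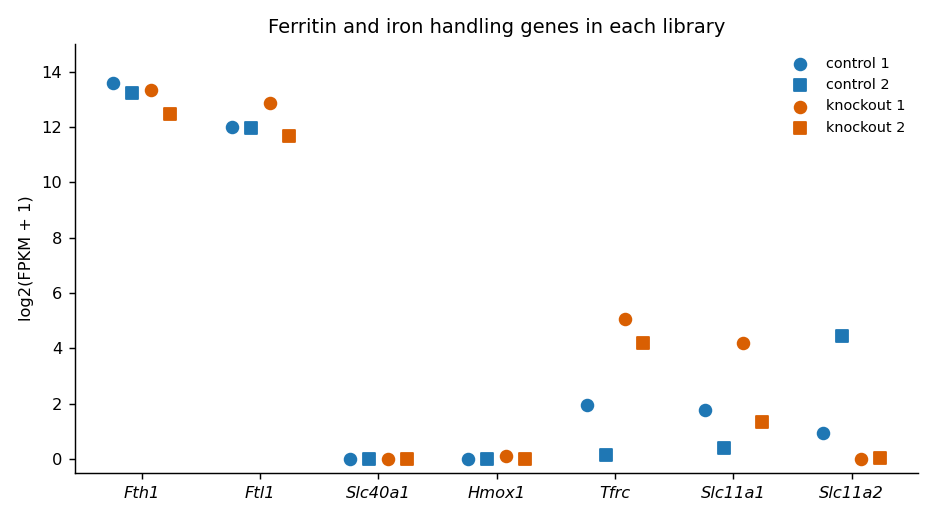
Expression of the 7 genes in each library, as log2(FPKM + 1); circles are replicate 1 and squares replicate 2 of the control (blue) and TAK1 knockout (orange) groups. Fth1 and Ftl1 lie above 11 in every library, Slc40a1 and Hmox1 lie at or near 0, and the groups are separate for Tfrc and Slc11a2.

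Storage came first in level. Fth1 (chromosome 19, 9980600 to 9985111, GRCm38.p6) encodes the ferritin heavy chain, which oxidises iron as it enters the shell. It read 12251 and 9497 FPKM in controls and 10344 and 5693 FPKM in knockouts. Knockout 1 lay between the controls and knockout 2 was the lowest, so the groups overlapped. The means were 10874 ± 1947 FPKM in controls and 8018 ± 3289 FPKM in knockouts (± SD, n = 2 per group), a log2 difference of -0.49 (SE 0.30, limma adjusted p = 0.698). By level Fth1 ranked 9, 11, 5 and 13 among all genes across control 1 and 2 and knockout 1 and 2. The difference depended on how libraries were scaled: it was -1.37 after median ratio scaling, where both knockouts lay below both controls (adjusted p = 0.575), and 0.05 after quantile normalization (adjusted p = 0.945). It also rested on knockout 2: without that library it was -0.06 (adjusted p = 0.895), and without knockout 1 it was -0.92 (adjusted p = 0.286).

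Ftl1 (chromosome 7, 45457944 to 45459886) encodes the light chain, which promotes formation of the iron core. It read 4125 and 3945 FPKM in controls and 7422 and 3242 FPKM in knockouts. Knockout 1 was the highest and knockout 2 the lowest of the 4, with the controls close together between them. The means were 4035 ± 127 FPKM and 5332 ± 2956 FPKM (± SD, n = 2 per group), a log2 difference of 0.28 (SE 0.39, limma adjusted p = 0.726). Single libraries decided the sign and the call. The difference was 0.88 without knockout 2, where it passed (adjusted p = 0.0471), and -0.32 without knockout 1 (adjusted p = 0.277), with the lone knockout assumed to vary like the controls. It was -0.60 after median ratio scaling (adjusted p = 0.69), and over all settings the adjusted p ranged from 0.0471 to 0.941.

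Together the ferritin chains took 1.69% and 1.56% of all summed FPKM in controls and 2.16% and 1.1% in knockouts. The knockouts thus stood on either side of the controls, and the group means of 1.62% ± 0.0936 and 1.63% ± 0.748 (± SD, n = 2 per group) differed by less than the spread of the knockouts (exact two-sided permutation p = 1). With 2 libraries against 2, the smallest p this test allows is 0.333.

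The ratio of the chains did not overlap between the groups. Fth1 read 2.97 and 2.41 times Ftl1 in controls and 1.39 and 1.76 times Ftl1 in knockouts. Fth1 was above Ftl1 in 4 of 4 libraries, and both knockout ratios were below both control ratios. On the log2(FPKM + 1) scale the ratio was 1.42 ± 0.21 in controls and 0.65 ± 0.24 in knockouts (± SD, n = 2 per group), a difference of -0.77 that was larger than the SD of either group (exact two-sided permutation p = 0.333, the smallest possible). Rescaling a whole library by 1 factor leaves such a ratio almost unchanged, and after quantile normalization the difference was -0.60. Without each library in turn the difference was between -0.94 and -0.61, where its sign could not turn because the ratios did not overlap. In bulk RNA from sorted cells, a change in the proportion of cell types and a change within cells cannot be told apart. Near-identical ferritin copies could take some of the reads: the pseudogene Ftl1-ps2 read 16.03, 16.3, 28.9 and 17.6 FPKM across control 1 and 2 and knockout 1 and 2, or 0.389%, 0.413%, 0.389% and 0.542% of Ftl1.

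**Figure D2:**
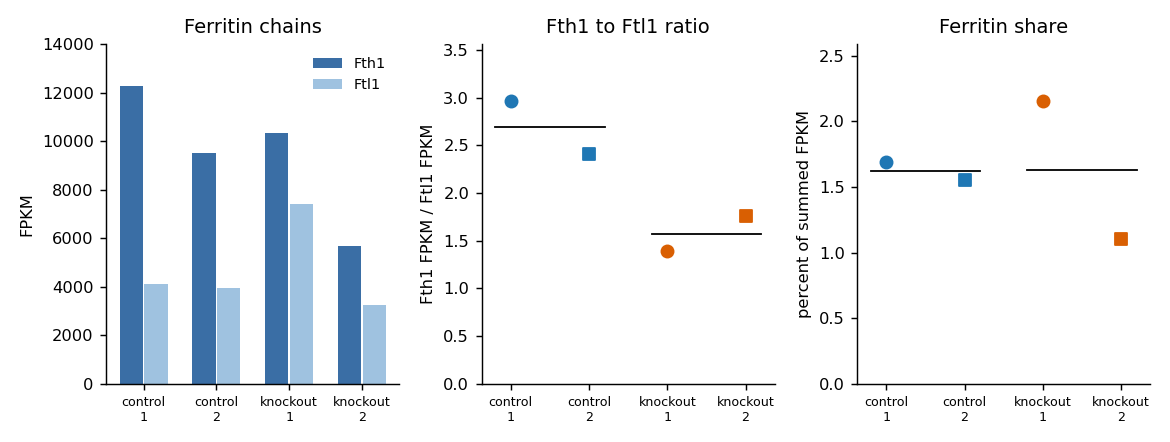
Left, FPKM of Fth1 and Ftl1 in each library; middle, the ratio of the FPKM of Fth1 to that of Ftl1; right, both chains as a percent of the summed FPKM, with lines at the group means. The ratio is 2.41 or higher in both controls and 1.76 or lower in both knockouts, while the share of knockout 1 lies above and that of knockout 2 below both controls.

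Other storage genes stood far lower. Of 6 tested genes of ferritin storage and turnover, Fth1 and Ftl1 included, 1 (16.7%) lay above and 1 (16.7%) below both controls. Over all tested genes these shares were 27.8% and 11.4%. The median log2 difference of the 6 was 0.14, against 0.94 for all tested genes and -0.11 for those whose mean reached 100 FPKM. Pcbp2, which encodes a cytosolic iron chaperone that also binds RNA, read 143 and 68.3 FPKM in controls and 66.4 and 34.9 in knockouts, so both knockouts were below both controls (limma adjusted p = 0.698). Its relative Pcbp1 read 0.08, 54.7, 0.16 and 50.9 FPKM across control 1 and 2 and knockout 1 and 2. Ncoa4, the receptor that delivers ferritin to the lysosome for breakdown, read 33.2, 0.25, 66.4 and 0.4 FPKM in the same order. Pcbp1 and Ncoa4 thus differed more between libraries of 1 group than between groups.

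Tfrc, Slc11a2 and Slc11a1 were low and uneven. Tfrc (chromosome 16, 32608896 to 32632794), the transferrin receptor, read 2.89 and 0.1 FPKM in controls and 32.4 and 17.2 FPKM in knockouts. Both knockouts were well above both controls. The means were 1.495 ± 1.97 and 24.8 ± 10.7 FPKM (± SD, n = 2 per group), a log2 difference of 3.58 (SE 1.66), or 2.64 relative to the median of all tested genes. It did not pass (limma unadjusted p = 0.075, adjusted p = 0.698). The knockouts also lay above the controls after every rescaling tried, and the difference was between 2.18 and 4.94 in the 14 alternatives, with an adjusted p of 0.348 to 0.761. Rod photoreceptor markers were higher in the same libraries: 13 of 15 lay above both controls and 0 below, against 27.8% and 11.4% of all tested genes. None of these markers was at 0 in all libraries, and they summed to 2974 to 4012 FPKM in controls and 7259 to 11924 FPKM in knockouts. Their part in the Tfrc values was not tested.

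Slc11a2 (chromosome 15, 100387898 to 100424209), the divalent metal transporter DMT1 that passes iron out of endosomes, went the other way. It read 0.9 and 20.6 FPKM in controls and was listed at 0 and 0.02 FPKM in knockouts. Control 2 held almost all of its signal, and no fold change is given against values this close to 0. The log2 difference was -2.66 (SE 1.83, limma adjusted p = 0.698). The knockouts stayed below the controls after every rescaling, but without control 2 the gene fell under the filter and had no value. Of 7 tested monocyte markers, 2 lay below both controls and 0 above in the same comparison, against 11.4% and 27.8% of all tested genes. The groups overlapped for the other 5. Those 2 were Cd209a, a lectin of monocyte-derived cells, at 503 and 886 FPKM in controls and 1.19 and 2.1 in knockouts, and Ccr2, the chemokine receptor of inflammatory monocytes, at 316 and 151 FPKM against 1.81 and 0.59. F13a1 read 119 FPKM in knockout 2 and at most 0.18 FPKM elsewhere. The list summed to 919 to 1328 FPKM in controls and 53.3 to 130 FPKM in knockouts, or 416 to 442 FPKM and 52.1 to 128 FPKM without Cd209a. Their part in the Slc11a2 values was not tested.

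Slc11a1 (chromosome 1, 74375014 to 74386057), the phagosomal metal transporter NRAMP1 of macrophages, read 2.38 and 0.33 FPKM in controls and 17.2 and 1.55 FPKM in knockouts. Knockout 1 was the highest and knockout 2 lay between the controls. The log2 difference was 1.68 (SE 1.82, limma adjusted p = 0.698), and it was -0.23 after quantile normalization (adjusted p = 0.972). It rested on knockout 1, without which it was 0.27 (adjusted p = 0.88).

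**Figure D3:**
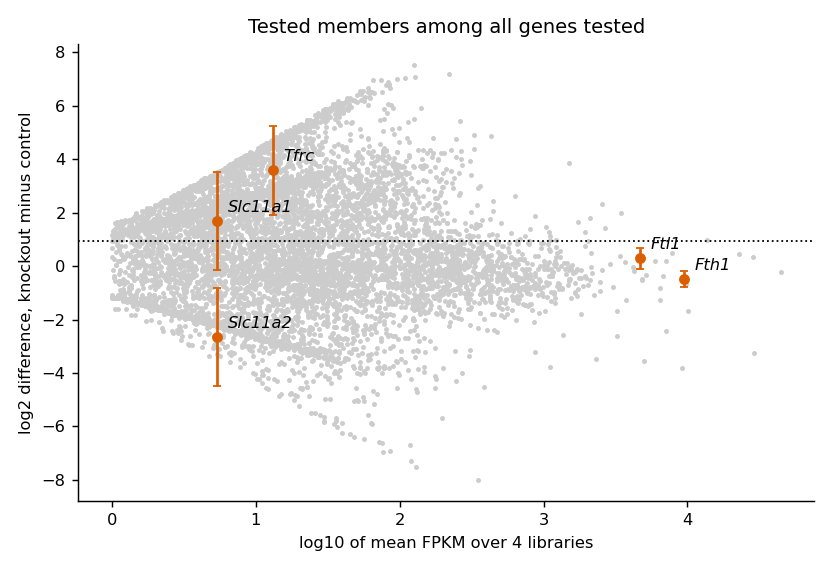
Log2 difference (knockout minus control) against the log10 of the mean FPKM for every tested gene (grey) and the 5 tested iron genes (orange, bars are the SE from limma); the dotted line is the median of all tested genes, 0.94. Fth1 and Ftl1 lie near the right edge of the cloud close to 0, and Tfrc and Slc11a2 lie within the wide spread of low genes.

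Among 9 tested genes of the transferrin cycle and other iron uptake, 2 (22.2%) lay above and 2 (22.2%) below both controls. All tested genes had shares of 27.8% and 11.4%. The median log2 difference of the 9 was 1.14, against 0.94 for all tested genes. Trf, which encodes transferrin, was the most abundant of the 9, at 409 and 190 FPKM in controls and 634 and 382 FPKM in knockouts. Its groups overlapped, since control 1 lay between the knockouts (log2 difference 0.82, SE 0.67, limma adjusted p = 0.698). Slc39a8, a zinc and iron importer, read 39.4 FPKM in knockout 2 and 0.02 to 0.08 FPKM in the other 3 libraries. Hfe, which binds the transferrin receptor, read 37.9 FPKM in control 1 and 0.05 to 0.2 FPKM elsewhere, and Slc39a14, another such importer, read 13.1 FPKM in control 1 and 0 to 0.05 FPKM elsewhere. In 5 of the 9 genes 1 library held over 90% of the signal.

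The ferroportin and inducible heme oxygenase genes were at the floor. Slc40a1 (chromosome 1, 45908070 to 45926532), which encodes ferroportin, the iron exporter, was listed at 0 FPKM in all 4 libraries. Hmox1 (chromosome 8, 75093618 to 75100593), the inducible heme oxygenase that frees iron from heme, was listed at 0 in both controls, 0.09 in knockout 1 and 0 in knockout 2. Neither was tested, and no fold change is given. Cp, the ceruloplasmin ferroxidase that works with ferroportin, read 37.5, 0.17, 0.02 and 16.9 FPKM across control 1 and 2 and knockout 1 and 2, so the groups overlapped. Cd163, the scavenger receptor for hemoglobin on perivascular macrophages, read 0.01, 0, 0 and 0.02 FPKM in the same order. Other markers of perivascular macrophages were present: Ms4a7 read 1614 and 1547 FPKM in controls and 189 and 155 in knockouts, and Pf4 read 367, 1.04, 0.51 and 303 FPKM across control 1 and 2 and knockout 1 and 2. The 10 markers of that list summed to 1752 to 2247 FPKM in controls and 190 to 840 FPKM in knockouts. Of 9 tested, 3 lay below both controls and 0 above, against 11.4% and 27.8% of all tested genes. Ms4a7 made most of the control sum. Without it the sums were 633 and 206 FPKM in controls and 0.99 and 685 FPKM in knockouts, which overlap, and Lyve1, F13a1 and Cbr2 read 61.8, 119 and 96.7 FPKM in knockout 2 and at most 0.18 FPKM in controls (named after their values were seen). In a short list of genes linked to iron-recycling macrophages, 0 of 4 tested lay above and 0 below both controls (median log2 difference -0.02). The 4 were Fth1, Ftl1, Blvrb and Hpgds, so the ferritin chains are counted here again. Hpgds, a prostaglandin synthase gene, read 322, 176, 353 and 143 FPKM across control 1 and 2 and knockout 1 and 2. Markers of red blood cells, the main carriers of heme iron, were at 0 in every library but for Hbb-bs at 0.15 FPKM in control 2.

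The constitutive arm of heme breakdown was present at moderate levels. Hmox2, the constitutive heme oxygenase, read 277 and 309 FPKM in controls and 243 and 178 in knockouts, so both knockouts lay below both controls (log2 difference -0.49, SE 0.66, limma adjusted p = 0.718). Blvra, a biliverdin reductase that acts after heme oxygenase, read 204, 525, 253 and 213 FPKM across control 1 and 2 and knockout 1 and 2, with overlapping groups. Blvrb, the other reductase, read 0.11, 31.8, 33.1 and 0.12 FPKM in the same order. Bach1, a heme-binding repressor of Hmox1 and the ferritin genes, read 6.11 and 7.62 FPKM in controls and 14.8 and 15.8 in knockouts; the groups did not overlap, but it did not pass (log2 difference 1.06, SE 1.48, limma adjusted p = 0.729). Of the 8 tested genes of heme uptake and breakdown, 4 (50%) lay above and 2 (25%) below both controls, against 27.8% and 11.4% of all tested genes. Their median log2 difference was 0.55 for the 8, against 0.94 for all tested genes.

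The iron regulatory proteins and their control were tested as 5 genes, of which 0 lay above and 1 (20%) below both controls (median log2 difference 0.08). For all tested genes the shares were 27.8% above and 11.4% below, and the median was 0.94. Ireb2, which encodes iron regulatory protein IRP2, read 32.1 and 33.4 FPKM in controls, against 27.9 in knockout 1 and 0.14 in knockout 2. The knockouts lay below the controls, but only knockout 2 was far from them. Fbxl5, the iron-sensing ubiquitin ligase subunit that removes IRP2, read 0.4 and 123 FPKM in controls and 85.9 and 65.9 in knockouts. Its partners Skp1 and Cul1, shared by many ubiquitin ligases, read 245 to 331 and 27.0 to 84.2 FPKM over the 4 libraries, with overlapping groups.

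The largest list covered mitochondrial iron and iron-sulfur clusters, with genes for cluster assembly in the cytosol included. Of 25 tested genes for mitochondrial iron and iron-sulfur clusters, 6 (24%) lay above and 3 (12%) below both controls. These shares were near those of all tested genes, 27.8% and 11.4%. The median log2 difference of the 25 was 1.22, against 0.94 for all tested genes. Iscu, the scaffold on which clusters are built, read 334 and 330 FPKM in controls and 764 and 462 FPKM in knockouts, above both controls (log2 difference 0.84, SE 0.55, limma adjusted p = 0.698). Lyrm4, which stabilises the sulfur donor of the same complex, read 479 and 373 FPKM against 65.9 and 284 FPKM, below both controls (-1.62, SE 0.89, limma adjusted p = 0.698). Ndufab1, the acyl carrier protein of that complex and of respiratory complex I, read 710, 545, 286 and 854 FPKM across control 1 and 2 and knockout 1 and 2, with the knockouts on either side of the controls. Nfu1, a late cluster carrier, read 411, 1.72, 237 and 102 FPKM in the same order.

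Heme synthesis gave 3 (33.3%) of 9 tested genes above and 2 (22.2%) below both controls (median log2 difference 0.04). Among all tested genes 27.8% lay above and 11.4% below, with a median of 0.94. Tmem14c, which moves a heme precursor into mitochondria, read 1.35 and 1.48 FPKM against 132 and 6.7 FPKM. Alas1, the rate-limiting enzyme outside red cells, read 0.29, 79.1, 0.08 and 26.6 FPKM across control 1 and 2 and knockout 1 and 2, and Uros read 138 FPKM in control 2 and 0.04 to 0.1 FPKM elsewhere.

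A list of genes for antioxidant defence and iron-dependent cell death had 2 (12.5%) of 16 tested genes above and 3 (18.8%) below both controls. Shares of all tested genes were 27.8% and 11.4%. The median log2 difference of the 16 was 0.61, against 0.94 for all tested genes. The list included the gene for NRF2, a regulator of the ferritin genes and Hmox1. Not all of the listed genes are NRF2 targets, so these counts do not measure NRF2 activity. Sod1, the cytosolic superoxide dismutase, read 2537 and 3353 FPKM in controls and 1772 and 2128 in knockouts, below both controls (log2 difference -0.59, SE 0.28, limma adjusted p = 0.698). Prdx1, a peroxide-reducing enzyme, read 1532 and 800.2 FPKM against 540 and 792 FPKM, also below both controls. Gpx4, the lipid peroxidase that protects from iron-dependent cell death, read 69.2, 97.2, 338 and 75.6 FPKM across control 1 and 2 and knockout 1 and 2, and Txn1, thioredoxin, read 70.6, 308, 146 and 241 FPKM, both with overlapping groups.

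Over all lists, 115 iron genes were listed, 103 were in the table and 80 were tested. Of the 80, 18 (22.5%) lay above both controls and 14 (17.5%) below, against 27.8% and 11.4% of all tested genes. The median log2 difference of the 80 was 0.61, against 0.94 for all tested genes and -0.11 for those whose mean reached 100 FPKM. The split turned with scaling: after median ratio scaling 13 lay above and 20 below, where the shares of all tested genes were 20.2% and 20.6%, and after quantile normalization 12 lay above and 16 below, against 18.3% and 19.9%. Rescaling to the same sum gave 20 above and 8 below, against 31.2% and 9.69% of all tested genes. The shares also depended on level. Of the 18 iron genes whose mean reached 100 FPKM, 2 (11.1%) lay above and 5 (27.8%) below both controls before rescaling. For all 1177 genes at that level the shares were 19% and 26.5%. None of the 80 was called by limma after adjustment. An unadjusted p under 0.05 was found for 3 of the 80, against 7.7% of all tested genes. Among the 3 were the iron-sulfur assembly gene Isca2 and Cat, which encodes the heme enzyme catalase. Isca2 read 0.75 and 0.87 FPKM in controls and 328 and 178 in knockouts (limma adjusted p = 0.559), and Cat read 1.11 and 0.37 FPKM against 47.7 and 101 FPKM (limma adjusted p = 0.559); both were named after their values were seen.

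**Figure D4:**
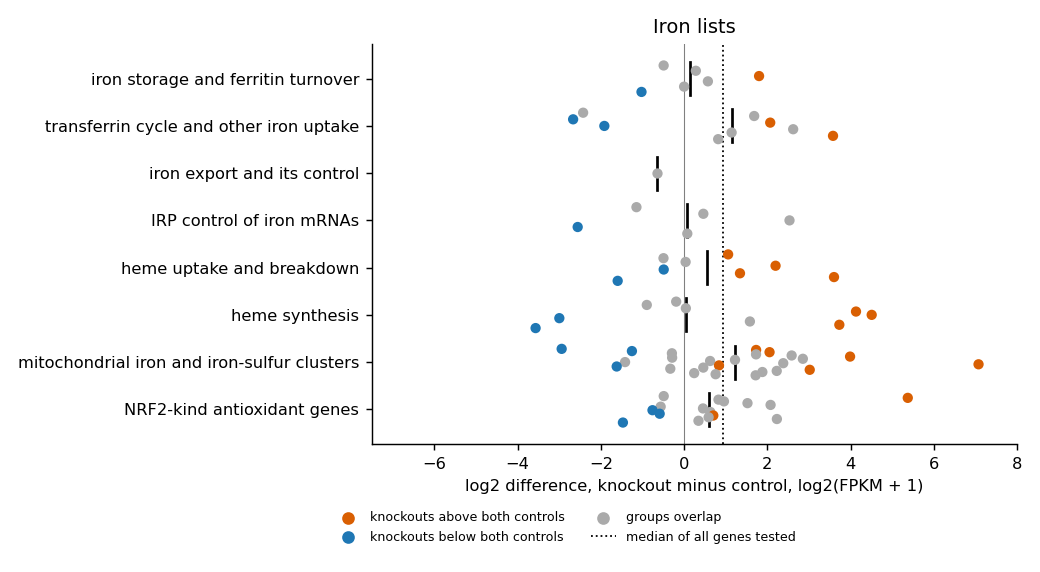
Log2 difference (knockout minus control) of each tested gene in 8 iron lists, with the list median as a black bar and the median of all tested genes, 0.94, as a dotted line; orange genes lie above and blue genes below both controls. Genes of both colours occur in 6 of the lists, and no list lies wholly to 1 side of the dotted line except that for export, which has 1 tested gene.

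In order of level, the means over the 4 libraries were 9446 FPKM for Fth1, 4683 for Ftl1, 13.2 for Tfrc, 5.38 for Slc11a2 and 5.36 for Slc11a1, with Hmox1 at 0.0225 and Slc40a1 at 0. Fth1 exceeded Ftl1 in every library and Ftl1 exceeded Tfrc in every library by a wide margin, whereas the ranges of Tfrc, Slc11a2 and Slc11a1 overlapped. Likeness of pattern was measured as the distance between centred log2(FPKM + 1) values over the 4 libraries, among 1177 genes whose mean reached 100 FPKM. Nearest to Fth1 were the ceramidase gene Acer3 (distance 0.0518), the mitochondrial ribosomal gene Mrpl23 (0.0961) and Ywhae, a 14-3-3 protein gene (0.1), where the median gene lay at 1.60. Nearest to Ftl1 were Thoc7 (0.277), Ergic2 (0.329) and Ginm1 (0.339), where the median gene lay at 1.74. With 4 libraries these distances are a description only.

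The labelled cell type was checked against its markers. All 12 microglia markers were tested, and they summed to 12533 to 14616 FPKM in controls and 20417 to 26494 FPKM in knockouts. Of these 12, 7 lay above and 2 below both controls. For this and the next lists, the shares of all tested genes were 27.8% above and 11.4% below. Gpr34, a lysophospholipid receptor gene of microglia, read 927 and 481 FPKM in controls and 1862 and 1154 in knockouts, and Aif1, which encodes the actin-binding protein IBA1, read 2389 and 2318 FPKM against 1246 and 1611 FPKM. Müller glia and astrocyte markers, with 1 of 8 tested above and 1 below both controls, summed to 5172 to 5400.3 FPKM in controls, 10213 FPKM in knockout 1 and 2281 FPKM in knockout 2. Apoe, which macrophages also express, made most of these sums; without it they were 268 and 432 FPKM in controls and 1022 and 635 FPKM in knockouts. Endothelial markers, with 2 of 3 tested above and 0 below, summed to 0.2 and 0.6 FPKM in controls and 16 and 196 FPKM in knockouts. Markers of the retinal pigment epithelium summed to at most 9.79 FPKM in any library, and 1 was tested.

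**Figure D5:**
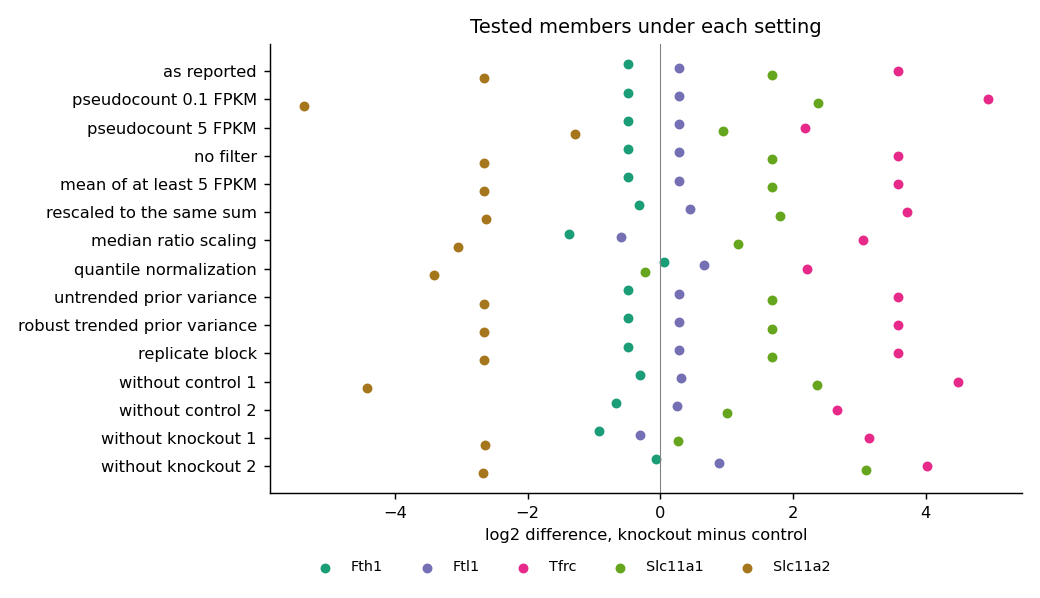
Log2 difference (knockout minus control) of the 5 tested iron genes under the reported setting and 14 alternatives; Slc11a2 has no point where control 2 is left out. Tfrc is above 0 and Slc11a2 below 0 at every point, while Fth1, Ftl1 and Slc11a1 each cross 0 at least once. For Tfrc and Slc11a2, whose groups do not overlap, only the rescalings could turn the sign.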

How the data were processed

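RNA from 200 sorted cells per library was copied into cDNA by a SMART-seq protocol with PCR pre-amplification, per the labels' protocols. The authors deposited 1 FPKM value per gene and library, rounded to 2 decimals; per the submitters' processing notes the build was mm10, and how reads were aligned and quantified is not given in the sources used here. Without molecular identifiers, copies made by PCR were counted like separate molecules. Each of the 4 columns was assigned to its sample by title. Gene coordinates come from RefSeq (GRCm38.p6).

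Genes whose mean reached 1 FPKM were put on the log2(FPKM + 1) scale, and the groups were compared with limma's moderated test (limma 3.58.1, R 4.3.3, trended prior variance), with Benjamini-Hochberg adjustment over 7823 genes and a threshold of 0.05. On this scale a fold change of a low gene is understated. The code was tested on simulated data. Ratios and shares used an exact permutation test over libraries. Figures used matplotlib 3.10.9.

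The genes, the 9 iron lists and 8 marker lists were chosen with earlier results of these data known. Named were the 7 genes, up to 4 further tested genes per iron list and up to 3 per marker list by highest mean, the 3 nearest patterns, and Map3k7; others are marked in the text, and some genes that were named by this rule are not reported here. Alternatives were the pseudocounts 0.1 and 5 FPKM, a filter at 5 FPKM or none, 3 rescalings, untrended and robust variances, a block on the replicate number, and leaving out each library.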

Additional observations from a re-analysis of the deposited data

How the results depend on the processing

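Tfrc stayed positive in 14 of 14 alternatives and Slc11a2 negative in the 13 that gave it a value, neither with a call. Most of these alternatives could not turn either sign. The filters, variance settings and block left both differences unchanged. Neither gene's groups overlapped, so a pseudocount or a left-out library could not turn the sign. Only the rescalings could, and there Tfrc was 2.21 to 3.72 and Slc11a2 -3.41 to -2.63. The sign turned for Fth1 after quantile normalization (0.0481), for Ftl1 after median ratio scaling (-0.60) and without knockout 1 (-0.32), and for Slc11a1 after quantile normalization (-0.23). Of the 7 genes, 0 were called in all settings but 1: the count was 0 to 1 when a library was left out, the 1 being Ftl1 without knockout 2 (0.88). Over all genes, 0 were called, against 5 after quantile normalization and 0 to 1311 when a library was left out (701 without knockout 1 and 1311 without knockout 2). With the replicate number as a block, 35 genes were called and none was one of the 7; the deviations of same-numbered libraries correlated at 0.0166 over 7823 genes, and nothing in the labels pairs them. The Fth1 to Ftl1 log2 difference was -0.94 to -0.61 with a library left out, where its sign could not turn. The ferritin share differed by 0.00658 percentage points, or -0.522 to 0.536 with a library left out (-0.522 without knockout 1, -0.0596 without control 2). Iron genes above both controls numbered 18, or 27 to 37 with a library left out, and those below 14, or 18 to 22, where 1 library fewer has to be separated; rescaling to the same sum gave 8 below. The unknown read depth limits what can be said of Slc40a1 and Hmox1.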
